A study of Rattus norvegicus with 3 samples.

Results

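The p53 target genes described here are Mdm2, Ccng1, Gadd45a, Sesn2, Zmat3, Bax, Bbc3, Phlda3, Fas and Aen, chosen by name as well-known genes that p53 switches on. All 10 were measured, each by 1 probe set, among 15037 genes named on the arrays. They were read in FRSK cells, an established line of rat keratinocytes from fetal skin, on 3 Affymetrix whole-transcript arrays. The first array came from cells given Met-ENK (Met-enkephalin) at 100 nM for 24 h. The second came from cells given β-END(1-9), an N-terminal fragment of β-endorphin, at the same dose and time, and the third from unstimulated control cells with no peptide. Met-ENK is a short opioid peptide whose residues also open β-END(1-9), so the longer peptide differs by its added C-terminal residues. Cells of all groups were attached cultures grown in DMEM with serum, and the labels do not state whether the control was given vehicle. Each condition has 1 array, so every difference below is between single arrays, has no replicate check and was not tested. Fewer cells that express a gene and less RNA per cell cannot be told apart in such whole-culture RNA.

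The transcription factor p53 is held at a low level in unstressed cells, because the ubiquitin ligase Mdm2, itself a p53 target, marks it for degradation. DNA damage and other stresses block that step, and p53 then switches on genes that stop the cell cycle, repair DNA, adjust metabolism or start apoptosis. In the epidermis this response is known from sun exposure, where it removes or arrests damaged keratinocytes. The gene for p53 itself is not analysed here.

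p53 binds a decamer of purines, a C, a pair of A or T bases, a G and pyrimidines, and a full response element is a pair of such decamers. RefSeq promoters of assembly GRCr8 were matched by symbol for 7 of the 10 genes (Mdm2, Ccng1, Gadd45a, Sesn2, Phlda3, Fas and Aen), and the 250 bases before each start were searched for the p53 decamer, which reads alike on both strands. The decamer was found in 3 of the 7 (42.9%), Ccng1, Gadd45a and Aen, and in 6.64% of 33469 promoter windows of the same length. A pair of decamers at most 13 bases apart was found in 0 of the 7 and in 0.0388% of all windows. At so low a share, 0 of 7 carries no information. The 3 matching windows are shown with the decamer in capitals, beside that of Phlda3, which had no match and whose signal was lower with Met-ENK. They lie at chr10:25684877-25685126 (minus strand) for Ccng1, chr4:97486800-97487049 (minus strand) for Gadd45a, chr1:142224283-142224532 (plus strand) for Aen and chr13:49744753-49745002 (plus strand) for Phlda3, and each is written 5′ to 3′ toward the start of its gene.
Ccng1: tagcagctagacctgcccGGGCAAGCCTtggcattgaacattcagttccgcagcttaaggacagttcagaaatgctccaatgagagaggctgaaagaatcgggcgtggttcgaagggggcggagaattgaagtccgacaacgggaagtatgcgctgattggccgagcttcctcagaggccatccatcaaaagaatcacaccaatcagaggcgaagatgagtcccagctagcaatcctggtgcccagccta
Gadd45a: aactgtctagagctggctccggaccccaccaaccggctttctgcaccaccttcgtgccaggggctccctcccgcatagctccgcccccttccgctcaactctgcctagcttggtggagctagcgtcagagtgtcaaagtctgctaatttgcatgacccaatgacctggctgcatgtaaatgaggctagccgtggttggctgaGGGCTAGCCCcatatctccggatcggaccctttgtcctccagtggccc
Aen: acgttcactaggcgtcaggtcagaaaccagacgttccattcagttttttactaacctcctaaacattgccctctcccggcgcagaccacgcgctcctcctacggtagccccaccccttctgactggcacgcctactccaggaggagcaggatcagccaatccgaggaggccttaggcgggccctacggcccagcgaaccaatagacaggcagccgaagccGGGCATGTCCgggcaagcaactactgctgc
Phlda3: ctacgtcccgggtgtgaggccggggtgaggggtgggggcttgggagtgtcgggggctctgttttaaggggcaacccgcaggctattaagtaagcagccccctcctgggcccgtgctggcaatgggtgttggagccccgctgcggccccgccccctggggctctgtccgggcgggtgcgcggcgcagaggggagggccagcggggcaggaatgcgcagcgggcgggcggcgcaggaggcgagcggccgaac
The decamer was GGGCAAGCCT in Ccng1, from 232 to 223 bases before the start, GGGCTAGCCC in Gadd45a, from 48 to 39 bases before it, and GGGCATGTCC in Aen, from 30 to 21 bases before it. A match describes these letters and is not a measured binding site. Only the 250 bases before each start were searched, so a window without a match says nothing about sites elsewhere in the gene. The 3 genes with a match had different readings on the arrays. Ccng1 had 1 value throughout, Gadd45a was slightly lower with both peptides and Aen was higher with Met-ENK.

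Among the wider values of these arrays, the 9 measured keratinocyte markers, Krt14 and Tp63 among them, all had log2 signals above the background range on every array, from 12.23 to 16.95. That range, 2.51 to 7.57, is the spread of 23 background probe sets with no rat target. Of the markers of other cells, 2 of 7 for fibroblasts, 1 of 5 for melanocytes, 0 of 5 for endothelium and 1 of 6 for immune cells lay above it. The summed marker signal on the Met-ENK, β-END(1-9) and control arrays was 18.66, 18.39 and 18.48 (log2) for keratinocytes. In the same order it was 9.66, 9.68 and 9.67 for fibroblasts, and 8.78, 8.83 and 8.97 for immune cells. For melanocytes it was 9.70, 9.72 and 9.87, and for endothelium 6.46, 6.72 and 6.38. The part of other cells in the results was not tested. Counts over genes use the 7519 named genes whose mean log2 signal reached 6.41, the median of all named genes, and call a gene higher or lower at 1.5-fold (0.58 on the log2 scale). On the deposited scale exactly equal signals on several arrays are common, so differences of exactly 0 say little.

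Most of the p53 targets had nearly the same signal on all 3 arrays. Of the 10, 4 had exactly 1 value on all arrays (Ccng1, Sesn2, Bbc3 and Fas), against 15.5% of all 15037 named genes. Bbc3 and Fas lay within the background range on every array, so their equal values show no steady expression. How the equal values of the targets arose was not tested. Another 3 (Mdm2, Gadd45a and Zmat3) had the same value with both peptides, so that 7 of 10 had equal peptide values, against 26.8% of all named genes. The other 3, Bax, Phlda3 and Aen, had a different value on each array and the largest differences from control with Met-ENK. With β-END(1-9) the largest difference of a target from control was that of Zmat3 (0.14). The median difference of the 9 targets that passed the level filter was 0.00 in each of the 3 comparisons. Over all genes passing it the median was 0.00 for Met-ENK minus control, -0.03 for β-END(1-9) minus control and 0.00 for Met-ENK minus β-END(1-9).

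**Figure D1:**
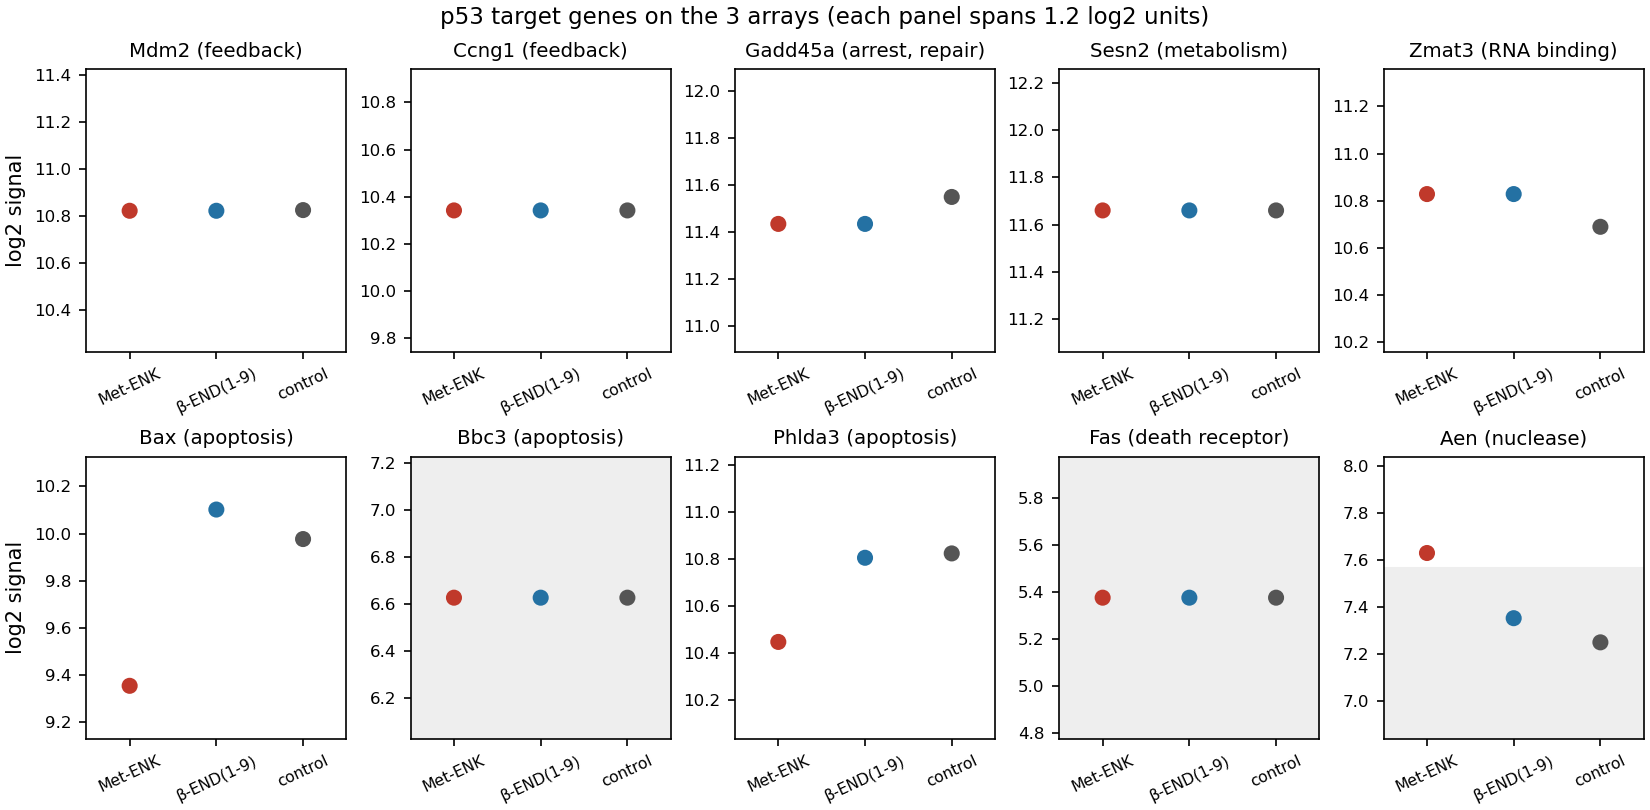
Log2 signal of each p53 target gene (vertical axis, 1.2 log2 units in every panel) on the Met-ENK, β-END(1-9) and control arrays, 1 point per array, with the background range of 2.51 to 7.57 in grey. Bax and Phlda3 are lowest on the Met-ENK array (9.35 and 10.45) and Aen is highest there (7.63), while Ccng1, Sesn2, Bbc3 and Fas have 1 value on all 3; panels have their own scales because signals of different probe sets cannot be set against each other.

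The feedback genes of the pathway, Mdm2 and Ccng1, had equal or nearly equal signals on the 3 arrays, which with such common ties says little. Mdm2 had log2 signals of 10.82 with Met-ENK, 10.82 with β-END(1-9) and 10.82 in control cells, with a difference of -0.0029 for either peptide that turned positive after other scalings. Ccng1, which encodes cyclin G1, a partner of protein phosphatase 2A and Mdm2, had 10.34 on each of the 3 arrays. Both genes lay above the background range on every array. Mdm4, the relative of Mdm2 that binds p53 and blocks its activity, had 9.85 with Met-ENK, 9.62 with β-END(1-9) and 9.88 in control cells. Ccng2, the relative of Ccng1, had 10.14 with Met-ENK, 10.14 with β-END(1-9) and 10.08 in control cells. Mdm4 thus differed by -0.03 (Met-ENK) and -0.26 (β-END(1-9)) from control, and Ccng2 by 0.06 for either peptide.

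The genes of growth arrest, repair and metabolism moved little. Gadd45a, a small stress protein that binds the replication clamp PCNA and takes part in growth arrest and repair, had 11.43 with Met-ENK, 11.43 with β-END(1-9) and 11.55 in control cells. That is 1.08-fold lower with either peptide, a difference of -0.11 on the log2 scale, and 50.2% of genes passing the filter lay at least as far from control in the Met-ENK comparison and 44.2% in that of β-END(1-9). With the trend along gene size removed it was 0.02 for Met-ENK, so its direction there depends on that choice. Its relatives Gadd45b (12.06 with Met-ENK, 11.92 with β-END(1-9), 12.06 in control) and Gadd45g (9.39 on all 3 arrays) were also close to control. Sesn2, which encodes a leucine sensor that restrains the growth kinase mTORC1, had 11.66 on all 3 arrays, and its relative Sesn3 had 9.29 with Met-ENK, 9.29 with β-END(1-9) and 9.31 in control cells. Zmat3, a zinc finger protein that binds RNA, had 10.83 with Met-ENK, 10.83 with β-END(1-9) and 10.69 in control cells. It was thus 1.10-fold higher with either peptide (0.14 on the log2 scale). Of genes passing the filter, 45.6% lay at least as far from control in either direction with Met-ENK and 39.4% with β-END(1-9). Counting the higher side alone, 16.6% were at least as high with Met-ENK and 7.65% with β-END(1-9). Because the peptide arrays carry equal values for Gadd45a and Zmat3 and share the control array, the 2 differences of each gene are 1 measurement.

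Among the apoptosis genes Bax stood lowest with Met-ENK. Bax encodes the protein that forms pores in the outer mitochondrial membrane. Its log2 signal was 9.35 with Met-ENK, 10.10 with β-END(1-9) and 9.98 in control cells, all above the background range. It was 1.54-fold lower with Met-ENK than in control cells (-0.62), 1.09-fold higher with β-END(1-9) than in control cells (0.13), and 1.68-fold lower with Met-ENK than with β-END(1-9) (-0.75). The peptide arrays therefore lay on opposite sides of the control array for Bax. On the β-END(1-9) side the distance was small, and 41.9% of genes passing the filter lay at least as far from control.

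Bax was the 1 of 9 targets past 1.5-fold for Met-ENK against control, where 6.02% of 7519 genes were called lower, 0.692% higher and 6.72% in either direction. With β-END(1-9) 0 of 9 targets were past 1.5-fold, where 2.83% of genes were called. Between the peptides Bax was again the 1 of 9, where 2.70% of genes were called lower, 1.89% higher and 4.59% in either direction. Of all genes passing the filter, 5.08% were at least as low as Bax for Met-ENK against control and 0.997% for Met-ENK against β-END(1-9). A single gene of 9 is near these background shares and is not a result about the targets as a group.

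**Figure D2:**
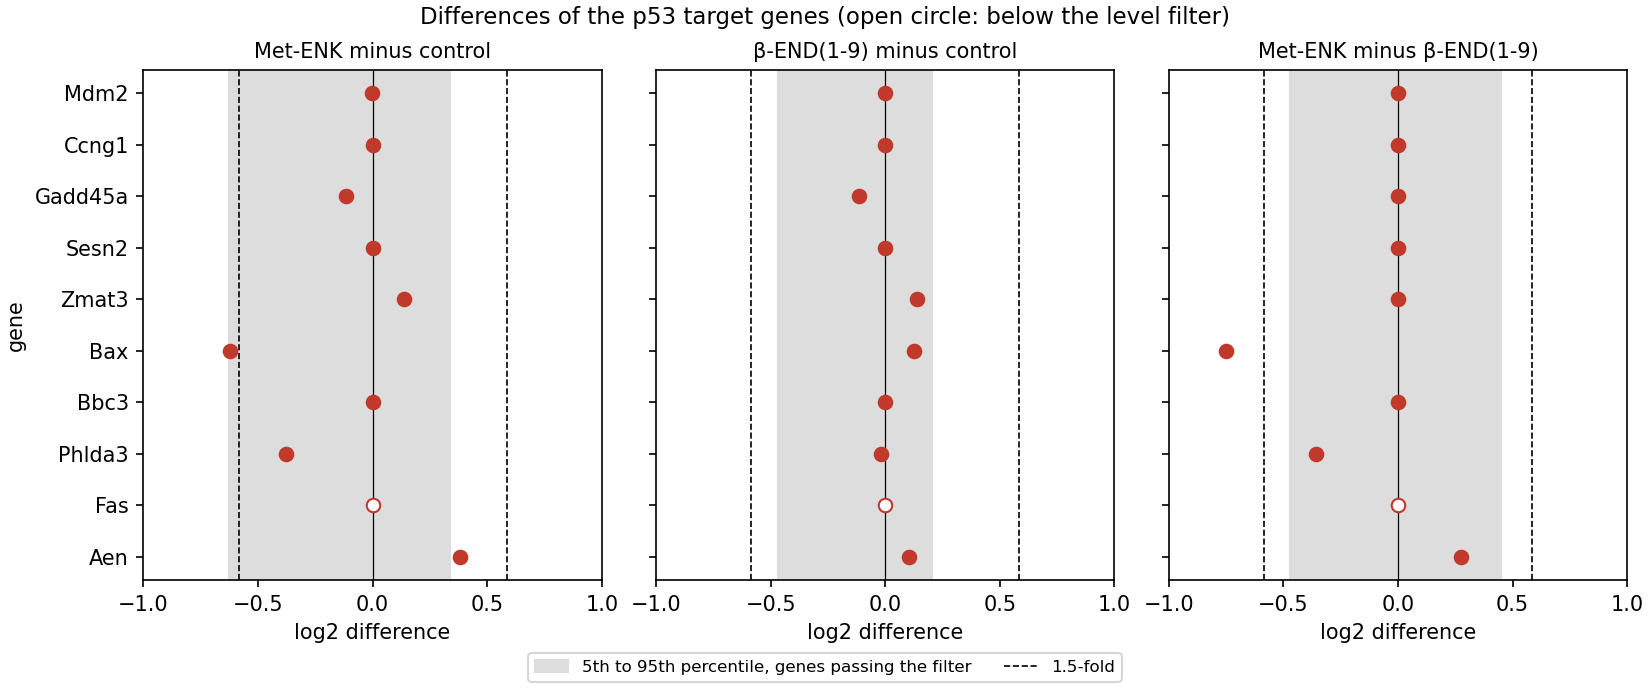
Log2 differences (horizontal axis) of the p53 target genes in the 3 comparisons, with the 5th to 95th percentile of 7519 genes in grey and dashed lines at 1.5-fold. Bax is past the lower line with Met-ENK against control (-0.62) and against β-END(1-9) (-0.75); Fas, below the level filter, is drawn open.

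Bax is a short gene, and short genes were more often called lower with Met-ENK. Bax has a short genomic span of 5.44 kb, from gene start to gene end, in the shortest quintile of genes (up to 8.05 kb). In that quintile 13.6% of 1504 genes were called lower with Met-ENK than in control cells, against 1.53% in the longest. With the trend along span removed, Bax differed by -0.51 from control, below 1.5-fold, and after a new quantile normalization by -0.53. Between the peptides Bax remained past 1.5-fold under every scaling run, from -0.78 to -0.70, with 6.58% of the shortest quintile called lower. The part of gene span in the differences of the targets was not tested.

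**Figure D3:**
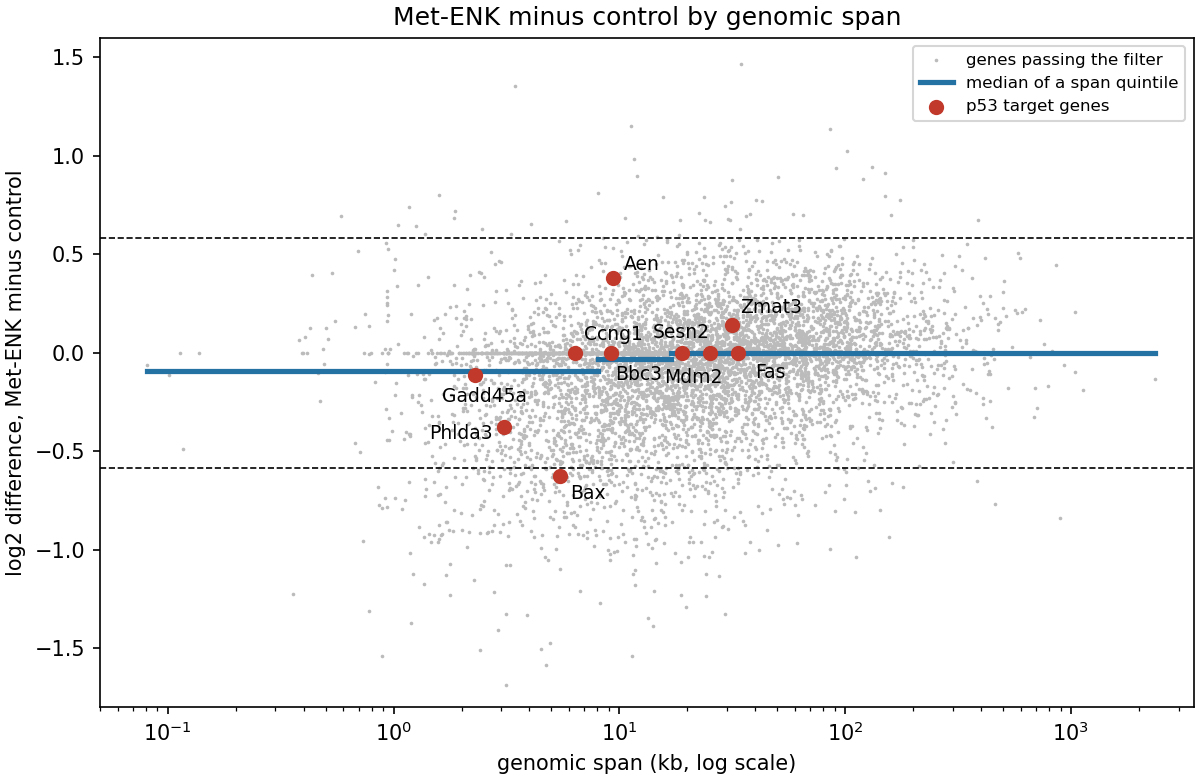
Log2 difference of Met-ENK minus control (vertical axis) against genomic span in kb (log scale) for 7519 genes in grey, with the median of each span quintile as a blue line, the 10 p53 targets in red and 1.5-fold dashed. Bax (-0.62), Phlda3 (-0.38) and Gadd45a (-0.11) lie in the shortest quintile, whose median is -0.09, as does Ccng1 at 0.

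Phlda3, which encodes a membrane-binding protein that competes with the survival kinase Akt1 for lipids, shared the low Met-ENK value. Its log2 signal was 10.45 with Met-ENK, 10.80 with β-END(1-9) and 10.82 in control cells. It was 1.30-fold lower with Met-ENK than in control cells (-0.38) and 1.28-fold lower than with β-END(1-9) (-0.36), while β-END(1-9) and control differed by -0.02. Of all genes passing the filter, 12.8% were at least as low as Phlda3 for Met-ENK against control, and 16.7% lay at least as far in either direction. Its span is 3.09 kb, also in the shortest quintile, and with that trend removed the difference was -0.24. Of its relatives, Phlda2 had 7.91 with Met-ENK, 8.17 with β-END(1-9) and 8.69 in control cells. Phlda2 was thus lower with both peptides, with differences of -0.78 for Met-ENK, past 1.5-fold, and -0.53 for β-END(1-9), whereas Phlda1 had 7.87 on all 3 arrays.

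Aen, an apoptosis-enhancing exonuclease, was the target with the highest difference from control. Its log2 signal was 7.63 with Met-ENK, 7.35 with β-END(1-9) and 7.25 in control cells. The control and β-END(1-9) signals lay within the background range and the Met-ENK signal just above its upper end of 7.57. It was 1.30-fold higher with Met-ENK than in control cells (0.38), 1.07-fold higher with β-END(1-9) (0.10), and 1.21-fold higher with Met-ENK than with β-END(1-9) (0.28). No comparison of Aen reached 1.5-fold (0 of 3). For Met-ENK against control 3.78% of genes were at least as high, and 16.5% lay at least as far from control in either direction. Its relative Isg20, an exonuclease known from the interferon response, went the other way. Isg20 had 6.69 with Met-ENK, 6.48 with β-END(1-9) and 7.41 in control cells, within the background range on every array and lower than control for both peptides (-0.72 and -0.93). Isg20l2 had 10.13 with Met-ENK, 10.14 with β-END(1-9) and 10.14 in control cells.

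The remaining death genes were at background level. Bbc3, which encodes PUMA, a protein that frees Bax from its inhibitors, had 6.63 on all 3 arrays. Fas, the cell surface death receptor, had 5.38 on all 3 arrays and was the target that did not pass the level filter. Both signals lay within the background range, so neither gene could be shown to be expressed or to differ.

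Bax had the widest range of the targets over the 3 arrays, 0.75. The 5 genes with the most similar pattern, by Euclidean distance between gene-centred signals over 3 arrays, were Chrac1 (0.023), Tbcb (0.034), Ubac1 (0.038), Rab5if (0.045) and Tmem50a (0.048). With 3 arrays such likeness is easily reached. A distance of at most 0.1 from Bax was held by 27 of 7518 genes.

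Other p53 targets, from a list of 38 of which 29 were measured and 25 passed the filter, showed no common direction. With Met-ENK 12 of the 25 were above control, 8 below and 5 equal, with 1 past 1.5-fold lower and 0 higher. Over all genes 32.7% were above control and 45.7% below, with 6.02% called lower and 0.692% higher. With β-END(1-9) 6 were above control, 10 below and 9 equal, with 1 past 1.5-fold in each direction. Of all genes, 18.8% were above control, 56.1% below and 25.1% equal, with 2.27% called lower and 0.559% higher. The list median was 0.00 against control with either peptide. Cdkn1a, the cell cycle inhibitor p21 and the best known p53 target, named after its values were seen, had 10.21 with Met-ENK, 10.18 with β-END(1-9) and 10.28 in control cells.

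Single genes of that list differed more. Ninj1, which ruptures the plasma membrane in lytic cell death, had 9.46 with Met-ENK, 9.75 with β-END(1-9) and 10.08 in control cells, with differences from control of -0.62 and -0.33. Fuca1, a lysosomal fucosidase, had 9.07 with Met-ENK, 8.87 with β-END(1-9) and 9.55 in control cells (-0.48 and -0.68 from control). Ddb2, which recognises ultraviolet damage in DNA, had 6.96 with Met-ENK, 7.85 with β-END(1-9) and 7.24 in control cells. Against control it stood at -0.28 with Met-ENK but at 0.61 with β-END(1-9), which gave a difference of -0.89 between the peptides, but only the β-END(1-9) signal lay above the background range. Apaf1, the scaffold of the apoptosome, had the highest difference from control with Met-ENK among the 25 genes passing the filter, with a signal of 12.52 with Met-ENK, 12.31 with β-END(1-9) and 12.15 in control cells (0.37 and 0.16). The calls of Ninj1 with Met-ENK and of Fuca1 with β-END(1-9) fell short of 1.5-fold after quantile normalization (-0.53 and -0.57), and that of Ninj1 also with the span trend removed (-0.53).

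Most genes of the p53 family and its regulators had a lower signal on the β-END(1-9) array than on the control array. The amounts were small and depended on the scaling. Of 20 listed, 14 were measured, the p53 relatives Tp63 and Tp73 among them, all above the background range. With β-END(1-9) 11 of 14 were below control, 1 above and 2 equal, with a median of -0.10 and 0 past 1.5-fold. Of all genes, 56.1% were below control, 18.8% above and 2.83% past 1.5-fold. The list median was -0.014 after quantile normalization, -0.044 after loess scaling and -0.045 with the span trend removed. With Met-ENK 7 were above control, 4 below and 3 equal (median 0.01, 0 past 1.5-fold). There 32.7% of all genes were above control, 45.7% below and 6.72% past 1.5-fold. Between the peptides 11 of 14 were higher with Met-ENK, 2 lower and 1 equal, with a median of 0.21 and 0 past 1.5-fold. Of all genes, 45.4% were higher and 4.59% were past 1.5-fold in either direction. Of the 14, 8 lay in the longest span quintile, whose median was 0.07 in that comparison, and with the span trend removed the list median was 0.11.

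The leading regulators were Daxx and Cop1. Daxx, a histone chaperone that also binds Mdm2, had 9.79 with Met-ENK, 9.23 with β-END(1-9) and 9.29 in control cells, a difference from control of 0.50 and -0.06. Cop1, a ubiquitin ligase for p53, had 10.02 with Met-ENK, 9.82 with β-END(1-9) and 10.36 in control cells (-0.34 and -0.53). Cdkn2a, whose ARF product inhibits Mdm2, had 13.30 with Met-ENK, 13.60 with β-END(1-9) and 13.48 in control cells (-0.18 and 0.12). Each of these was within 1.5-fold in all 3 comparisons.

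The partners of Bax in the BCL2 family included 14 measured genes, of which 8 passed the filter. With Met-ENK 4 of the 8 were above control and 4 below (median -0.0054), with 1 past 1.5-fold lower, where 45.7% of all genes were below control and 6.02% called lower. With β-END(1-9) 2 were above, 5 below and 1 equal (median -0.11), again with 1 past 1.5-fold lower, where 56.1% of all genes were below control and 2.27% called lower. The β-END(1-9) median was -0.014 after quantile normalization, -0.038 after loess scaling and -0.056 with the span trend removed, and the Met-ENK median was above 0 under these settings (0.075, 0.027 and 0.020). Bok, a relative of Bax in pore formation, had 9.93 with Met-ENK, 10.03 with β-END(1-9) and 10.53 in control cells. It differed by -0.59 with Met-ENK and by -0.50 with β-END(1-9). The first fell below 1.5-fold under all 4 other processings that could change it (-0.57 to -0.52). Averaging probe sets could not, because Bok has 1 probe set. Bid, the link from caspase 8 to mitochondria, had 8.14 with Met-ENK, 7.54 with β-END(1-9) and 8.21 in control cells, with the β-END(1-9) signal inside the background range. It differed from control by -0.08 with Met-ENK and by -0.68 with β-END(1-9), the second short of 1.5-fold after quantile normalization (-0.58). It was 0.60 higher with Met-ENK than with β-END(1-9), a gap of 0.57 with the span trend removed. The survival gene Bcl2l1 had 13.22 with Met-ENK, 13.09 with β-END(1-9) and 13.11 in control cells, and the pore former Bak1 had 9.53 with Met-ENK, 9.53 with β-END(1-9) and 9.47 in control cells.

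The listed death receptor and caspase genes, with Faslg, Tnfrsf1a and Tradd among them, were within 1.5-fold of control with either peptide. Of 12 measured, 10 passed the filter. With Met-ENK 6 of the 10 equalled control, 3 were above and 1 below, and with β-END(1-9) 5 equalled it, 1 was above and 4 below, with 0 past 1.5-fold for either. Over all genes 21.6% equalled control and 6.72% were called with Met-ENK, and 25.1% and 2.83% with β-END(1-9). The highest difference with Met-ENK was that of Apaf1, given above (0.37). Ripk1, a kinase recruited by death receptors, had 9.14 with Met-ENK, 8.52 with β-END(1-9) and 9.04 in control cells. It was 0.10 from control with Met-ENK, -0.52 with β-END(1-9) and 0.62 higher with Met-ENK than with β-END(1-9), a gap of 0.57 with the span trend removed. Diablo, which blocks caspase inhibitors after its release from mitochondria, had 11.06 with Met-ENK, 11.30 with β-END(1-9) and 11.30 in control cells (-0.24 and 0).

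The list of relatives and partners of the targets had 18 measured genes, of which 16 passed the filter. With Met-ENK 4 of the 16 were above control, 7 below and 5 equal, and 2 were past 1.5-fold lower, Phlda2 and Isg20, where 45.7% of all genes were below control and 6.02% called lower. With β-END(1-9) 1 was above control (Ccng2), 10 below and 5 equal, and 1 was past 1.5-fold lower (Isg20), where 56.1% were below control and 2.27% called lower. The signals of Isg20 lay within the background range on every array. Akt1, the kinase that Phlda3 restrains, had the highest difference of these 16 genes for Met-ENK against control, with a signal of 14.84 with Met-ENK, 14.61 with β-END(1-9) and 14.67 in control cells (0.17 and -0.06).

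**Figure D4:**
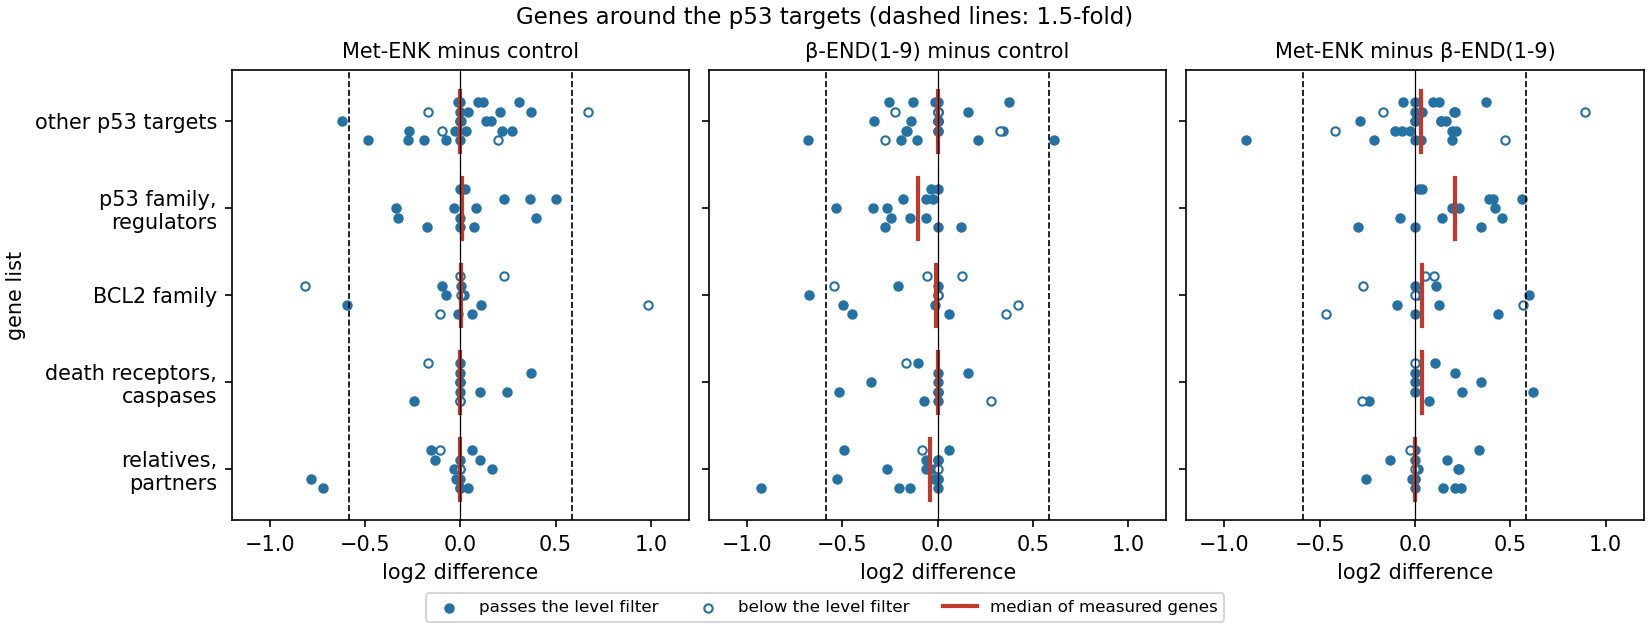
Log2 differences (horizontal axis) of single genes in 5 lists around the p53 targets, in the 3 comparisons, with filled points for genes passing the level filter, open points for genes below it, red bars for the median of measured genes and dashed lines at 1.5-fold. The median of measured genes that lies farthest from 0 is that of the p53 family and regulators for Met-ENK minus β-END(1-9), at 0.21; for β-END(1-9) minus control it is -0.10 for that list and -0.0068 for the BCL2 family, whose genes passing the filter alone have -0.11.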

How the data were processed

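RNA of 3 FRSK cultures was read on 1 array each. Each deposited value is a log2 signal of 1 probe set, which the authors made with RMA and the Affymetrix Expression Console and Transcriptome Analysis Console, per the submitters' processing notes. For versions, annotation release and genome build, nothing is given in the sources used here. Groups came from the sample titles. Of 24834 probe sets, 1646 controls were left out. The platform annotation names 1 symbol for 15049, standing for 15037 genes, and the probe set with the highest mean was used for the 10 genes with several. Genomic span came from RefSeq GRCr8. Differences of log2 signals were computed with Python 3.11.15 and pandas 2.3.3, with no test because each group has 1 array. The number of arrays limits the precision. Counting was tested on simulated data. Alternatives were 3 other scalings, removal of a lowess trend along span (statsmodels 0.14.6, fraction 0.3), averaged probe sets, other level filters and 2-fold. The 10 genes and all gene lists were chosen with earlier results of these data known. Genes of the other lists were named when past 1.5-fold or at either end of a list among genes passing the filter, and relatives of a target were named beside it.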

Additional observations from a re-analysis of the deposited data

How the results depend on the processing

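Each of the 10 targets has 1 probe set, so averaging probe sets could not change its values. Of their differences under other scalings, span correction and averaged probe sets, 145 values, the averaged ones among them, stayed on the same side of 1.5-fold. The 2 that did not were both for Bax with Met-ENK against control (-0.53 after quantile normalization and -0.51 with the span trend removed). The count of targets past 1.5-fold was then 0 in that comparison, against 1, and it was 0 at 2-fold for Met-ENK against control and 0 at 2-fold between the peptides. Without targets of exactly equal value the median between the peptides was -0.36 over 3 genes. Over all genes, 505, 213 and 345 were past 1.5-fold for Met-ENK minus control, β-END(1-9) minus control and Met-ENK minus β-END(1-9). In that order the counts were 1081, 693 and 836 without the level filter and 61, 21 and 22 at 2-fold, and β-END(1-9) had 129 above the background range. The share of called genes that were lower was 89.7% for Met-ENK minus control (77.1% after quantile normalization, 58.6% unfiltered). It was 80.3% for β-END(1-9) minus control (61.3% after quantile normalization, 67.9% with the span trend removed, 42.7% unfiltered). For genes of the other lists, recomputed as an addition chosen after seeing the data, 10 calls fell below 1.5-fold, all given above, and the median of death receptor and caspase genes moved to 0.11 with Met-ENK when the span trend was removed. For the 2 values of Bax and for Ninj1, Bok, Fuca1, Bid and Ripk1 the cause was not tested. No paired analysis was possible because each group has 1 array, and no replicate could be left out.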

Other observations

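Below the level filter, 3 listed genes of the pathway were past 1.5-fold and are named after their values were seen. Measured below it were 4 other p53 targets, 6 BCL2 family genes, 2 death receptor or caspase genes and 2 relatives or partners. Without the filter 1081 of 15037 named genes were past 1.5-fold for Met-ENK minus control, against 505 of 7519 with it. Between the peptides it was 836 against 345. For Met-ENK minus control Hrk stood at 0.98, Bad at -0.82 and Acer2 at 0.67. Acer2 was also past 1.5-fold between the peptides (0.89). Hrk, a BCL2 family inhibitor of survival proteins, had log2 signals of 5.90 with Met-ENK, 5.33 with β-END(1-9) and 4.91 in control cells. Bad, another such inhibitor, had 5.05 with Met-ENK, 5.32 with β-END(1-9) and 5.86 in control cells. Acer2, a ceramidase, had 6.15 with Met-ENK, 5.25 with β-END(1-9) and 5.48 in control cells. On every array all 3 lay inside the background range of 2.51 to 7.57.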
